A study of Mus musculus with 13 samples.

Results

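Immediate-early genes are transcribed within minutes of a stimulus, without new protein synthesis, and most return to a low level soon after. The 10 genes described here are Egr1, Egr2 and Egr3, zinc finger transcription factors; Nr4a1, Nr4a2 and Nr4a3, orphan nuclear receptors; Ier2 and Ier3, immediate-early response genes; Dusp1, a phosphatase that inactivates MAP kinases; and Zfp36, a protein that targets mRNAs with AU-rich elements for decay. They were taken by symbol from the 35967 genes of the expression table, and all 10 were found.

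RNA was sequenced from kidney glomeruli of wild-type Balb/c mice that received 2 mg of rabbit IgG intraperitoneally, 1 library per mouse. Control mice received preimmune rabbit IgG (n = 5), and mice with membranous nephropathy (MN) received rabbit IgG against THSD7A, a podocyte membrane protein, and were killed at day 1 (n = 4) or day 5 (n = 4). Control mice of both days form a single group, and their days of collection are not given for single mice. Per the study's methods, mice of the MN model were males of 14 to 15 weeks, and the transferred antibody comes from rabbits, so the model covers the effect of a given antibody and not the origin of an autoimmune response. The libraries hold whole glomeruli with several cell types, so fewer cells of a type and less RNA per cell cannot be told apart.

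Expression was given as TPM, transcript abundances per length that are scaled to the same total in every library. TPM carry no information on the number of reads, so the depth of the libraries was unknown. Each library's values for 8 podocyte genes, among them Nphs1 and Synpo, summed to 7578 to 10261 TPM across the 13 libraries, against 28.2 to 64.7 for 9 leukocyte genes, and these ranges overlapped between the groups. At day 5, 4 of the 8 podocyte genes had a log2 fold change above 0. Synpo was at -0.46 and Cdkn1c at 0.72 (limma, adjusted p = 0.00197 and 7.1e-04). The 6 mesangial genes summed to 1856 to 2600 TPM in control and 2233 to 2398 at day 1. At day 5 they summed to 2664 to 2937, above every control library. The sum of 15 tubule genes lay between 602 and 1476 TPM in control, between 1149 and 1791 at day 1 and between 856 and 1044 at day 5, and none of the 15 was at 0 in every library. All 15 had a log2 fold change above 0 at day 1, with a median of 0.73, although none passed the test.

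Immediate-early genes are switched on mainly through serum response factor with its ELK partners, which bind the serum response element, and through CREB, which binds the cyclic AMP response element (CRE, TGACGTCA, with the core TGACG). MAP kinases activate both. EGR proteins bind GC-rich sites (GCGNGGGCG) and are held back by the corepressors NAB1 and NAB2. NR4A receptors have no known need for a ligand, bind AAAGGTCA, and are controlled mostly by their amount. DUSP1 and ZFP36 act as brakes, the former on the kinases and the latter on the transcripts.

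These sites were searched on both strands of the RefSeq promoter windows (GRCm38.p6, 250 bases before to 50 after a start site). The windows of 7 of the 10 genes are described here. Egr1, Egr3 and Ier2 are the other members. The windows of Nr4a1, Nr4a2 and Nr4a3 each held 4 CRE cores and that of Dusp1 held 3, whereas 20.8% of 32851 windows held at least 1, 1.03% at least 3 and 0.231% at least 4. The Dusp1 window also held a whole CRE, found in 1.79% of windows, which accounts for 2 of the 3 as cores that overlap on opposite strands. The stretches that carry these sites are shown because all NR4A members share them; capitals mark the cores on either strand (TGACG, or CGTCA where the site lies on the opposite strand), and sequences are in the direction of transcription.
Nr4a1, chr15:101266603-101266820, plus strand: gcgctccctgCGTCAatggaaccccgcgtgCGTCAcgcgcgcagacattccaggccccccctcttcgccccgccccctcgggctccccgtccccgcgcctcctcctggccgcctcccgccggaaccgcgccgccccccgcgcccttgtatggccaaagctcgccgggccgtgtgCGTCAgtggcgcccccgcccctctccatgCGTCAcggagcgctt
Nr4a2, chr2:57124100-57124213, minus strand: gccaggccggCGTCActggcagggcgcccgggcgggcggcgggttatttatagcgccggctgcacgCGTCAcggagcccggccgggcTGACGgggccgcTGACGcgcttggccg
Nr4a3, chr4:48045064-48045172, plus strand: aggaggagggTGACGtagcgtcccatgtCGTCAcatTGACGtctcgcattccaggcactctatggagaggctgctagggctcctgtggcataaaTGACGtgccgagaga
Dusp1, chr17:26508598-26508673, minus strand: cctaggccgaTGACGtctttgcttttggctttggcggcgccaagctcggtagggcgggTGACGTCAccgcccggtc

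A serum response element lay in the Zfp36 window and in 4 of the 5 windows of Egr2, against 1.63% of all windows. The Egr2 windows that begin at bases 67537619, 67537620 and 67537680 overlap and hold the same site. The Egr2 window that begins at base 67537316 holds a different site, which is not shown. The Zfp36 site and the shared Egr2 site are shown in capitals with 10 bases on each side. The Egr2 stretch is from the window that begins at base 67537619.
Zfp36, chr7:28379267-28379296, minus strand: ccaggccgccCCATAAAAGGagaaagctcc
Egr2, chr10:67537787-67537816, plus strand: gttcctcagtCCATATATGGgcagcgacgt
The EGR site, present in 5.55% of windows, was found in those of Nr4a1, Nr4a2 and Zfp36. The NR4A site, present in 1.51%, was found in none of the 7 genes' windows. The window's start lay at most 74 bases from the 5′ end of a GENCODE transcript of the same gene for all 7 genes. However, 1 Egr2 window, which begins at base 67537316 and holds the site not shown, matched none. A match describes letters only, and no binding was measured here.

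In isolated control glomeruli the 10 genes covered a wide range of levels, and those of the brakes were among the highest. Per the study's methods, mouse glomeruli were isolated by collagenase digestion or mechanically, the latter for protein-binding experiments. The levels are those after isolation, and the part that isolation has in them, or in their spread between libraries, was not tested. Dusp1 had the highest TPM (170 ± 14.8, SD, n = 5), above that of Nr4a1 (72.0 ± 11.7) in every control library. Nr4a1, Zfp36 (60.4 ± 4.21), Ier2 (51.3 ± 6.20) and Ier3 (40.7 ± 4.73) followed in this order, and each overlapped with its neighbour. The next level down held Egr1 (11.1 ± 1.85), Nr4a2 (7.64 ± 3.52) and Nr4a3 (3.11 ± 2.86), again overlapping from one to the next, with Egr1 below Ier3 in all control libraries. Egr3 (0.487 ± 0.273) and Egr2 (0.162 ± 0.0620) were lowest, overlapped with each other, and reached a TPM of 1 in no control library.

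**Figure D1:**
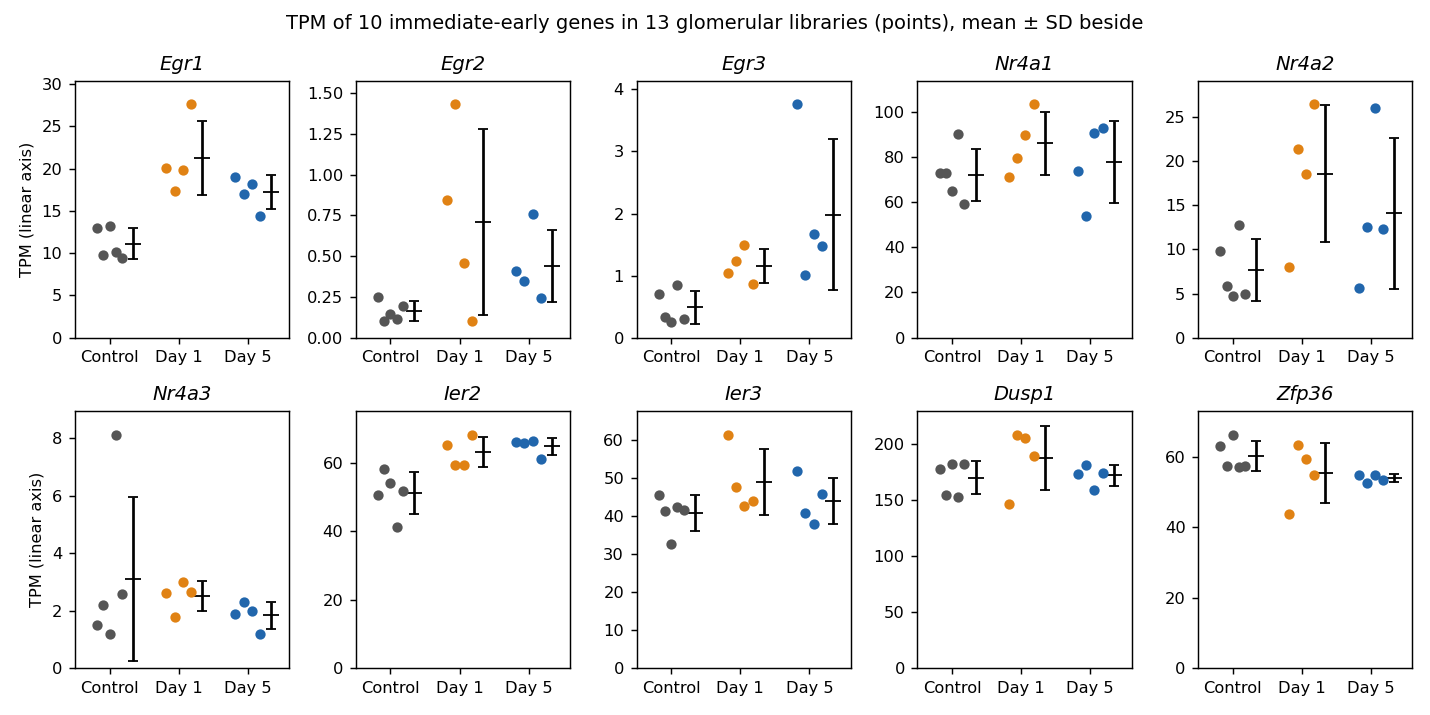
TPM (linear axes from 0, 1 panel per gene) of the 10 genes in control, day 1 MN and day 5 MN libraries; each point is 1 mouse and the bars are mean ± SD. Egr1, Egr3 and Ier2 of every MN library lie above every control library, while the other 7 genes overlap with control at day 1.

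For the tests, limma was fitted to log2(scaled TPM + 0.5), where the scaling evens out libraries, over the 14322 genes that reached a TPM of 1 in 4 or more libraries. A gene was called at an adjusted p-value (Benjamini-Hochberg over all tested genes) under 0.05 with an absolute log2 fold change above 0.5. Of the members, 9 entered the fit and Egr2 did not. Egr3 entered only through MN libraries, so a count over the tested members is not evidence of a direction. At day 1, Egr1 was the 1 member called higher, against 8 of all tested genes (0.0559%). At day 5, Egr1 and Egr3 were called, against 347 of all tested genes (2.42%). All day 1 MN libraries lay above all control libraries for 3 of the 10 members, Egr1, Egr3 and Ier2, and for 0.908% of tested genes. The same was true of these 3 members at day 5, when 5.07% of tested genes did so. Both MN groups were set against the same control libraries, so their values are not independent of each other.

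Egr1 encodes a factor that rises with growth factors, mechanical strain and stress, and it lies on chromosome 18 of GRCm39 (34992876 to 34998049). Its TPM was 12.9, 9.72, 13.2, 10.2 and 9.38 in the control libraries. At day 1 the values were 20.1, 17.4, 19.8 and 27.6, and at day 5 they were 19.0, 17.0, 18.2 and 14.4. The lowest MN library was thus above the highest control library at both days, and the ranges of the days overlapped. Egr1 rose 1.92-fold at day 1, a log2 fold change of 0.94 with a standard error of 0.14 (limma, adjusted p = 0.0271). At day 5 it rose 1.57-fold, a log2 fold change of 0.65 with the same standard error (limma, adjusted p = 0.0162). Between the days the log2 difference was -0.29 (95% interval -0.62 to 0.03, limma, adjusted p = 0.376), and it did not pass the test.

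The size of the Egr1 difference moved little with the fit, whereas its adjusted p did. At day 1 the log2 fold change lay between 0.81 and 1.02 in 25 other fits, but 9 of them gave an adjusted p above 0.05, the highest being 0.215. That fit had the tubule gene score as a covariate, chosen after the data were seen, and its log2 fold change was 0.93. The call was also lost without control replicate 2 (adjusted p = 0.0671, limma), control replicate 4 (0.0785), day 1 replicate 1 (0.106), day 1 replicate 4 (0.0540) or day 5 replicate 2 (0.0536). At day 5 the log2 fold change lay between 0.56 and 0.74, and the call was lost without day 5 replicate 1 (adjusted p = 0.0623, limma) or day 5 replicate 2 (0.0532).

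Egr3, a relative of Egr1 best known for its role in muscle spindles, lies on chromosome 14 (70314350 to 70319999). Control TPM were 0.712, 0.332, 0.249, 0.847 and 0.296, all below 1. They were 1.04, 1.23, 1.50 and 0.860 at day 1, and 3.76, 1.02, 1.68 and 1.47 at day 5. No MN library fell within the control range, although the lowest, day 1 replicate 4, was barely above the highest control library, and day 5 replicate 1 stood well above the other MN libraries. Egr3 rose at day 5 by 1.28 on the log2 scale, with a standard error of 0.31 (limma, adjusted p = 0.0251), and at day 1 its log2 fold change of 0.80 did not pass (adjusted p = 0.330, limma). Means of TPM differed 4.07-fold and 2.38-fold, and the log2 values understate this because 0.5 was added to low levels. The log2 difference of the days was 0.48 (95% interval -0.22 to 1.18) and was not called. Without day 5 replicate 1, the day 5 log2 fold change was 0.97 (adjusted p = 0.0745, limma), and the call was likewise lost without control replicate 3 (0.0603) or control replicate 5 (0.0559).

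**Figure D2:**
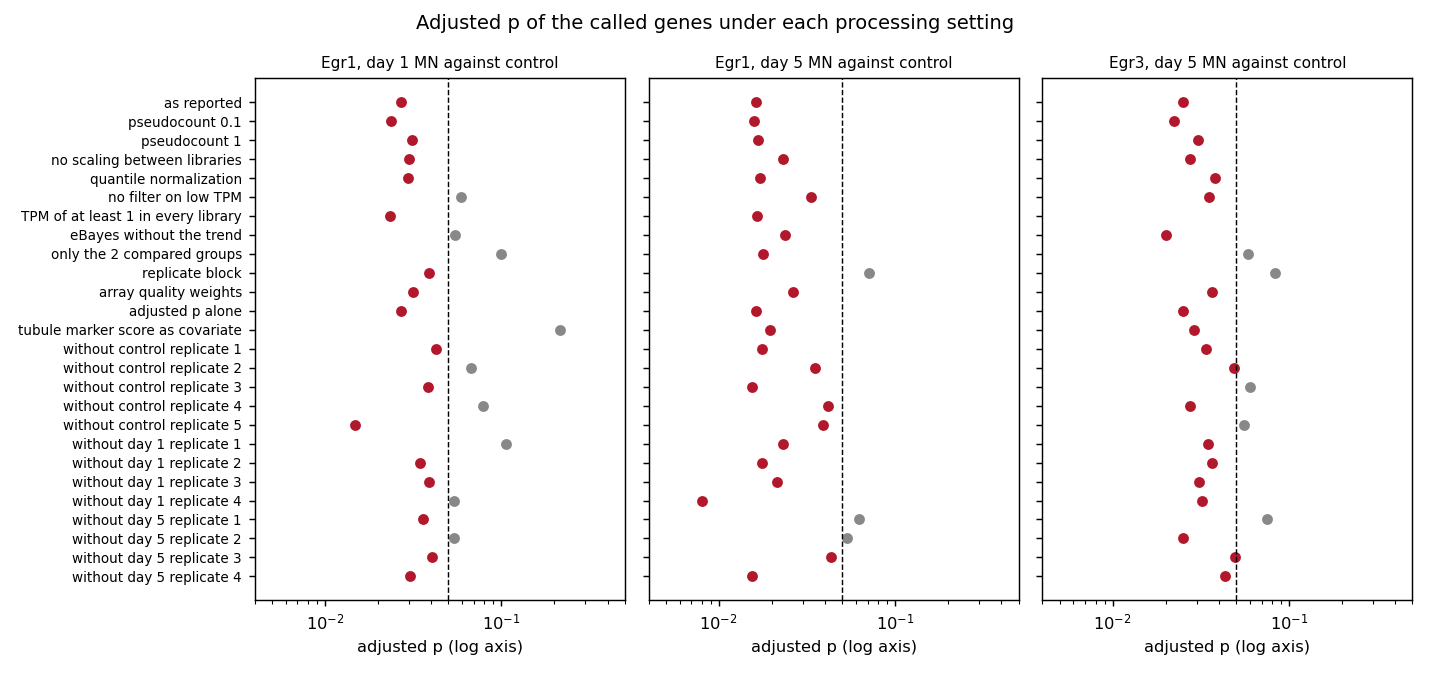
Adjusted p (log axis, limma with Benjamini-Hochberg adjustment) of Egr1 at day 1, Egr1 at day 5 and Egr3 at day 5 in the fit as reported and in every other fit, 1 line per fit; red points are under 0.05, grey points are not, and the dashed line is 0.05. Egr1 at day 1 was under 0.05 in 16 of 25 other fits, Egr1 at day 5 in 22 of 25 and Egr3 at day 5 in 19 of 24.

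Egr2, known for its role in myelinating Schwann cells, lies on chromosome 10 (67373692 to 67378018) and was close to the lower end of what the table lists. Its TPM was 0.252, 0.103, 0.145, 0.113 and 0.195 in control, 0.843, 1.43, 0.460 and 0.103 at day 1 and 0.411, 0.347, 0.758 and 0.242 at day 5. Day 1 replicate 4 was as low as the lowest control library, the other 3 day 1 libraries were above all controls, and at day 5 only replicate 4 was within the control range. In the limma fit with no filter on low values, over 23350 genes, the log2 fold changes were 0.76 at day 1 (adjusted p = 0.441) and 0.49 at day 5 (adjusted p = 0.488), and neither passed. The corepressors Nab1 and Nab2 did not pass at either day, with log2 fold changes from -0.11 to 0.12, and Egr4, the fourth gene of the family, had a TPM of at most 0.0491 in control and was listed at 0 in every MN library.

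Among the NR4A receptors, no member passed the test, and they differed from each other in level and spread. Nr4a2, which is required for dopamine neurons and is widely induced by cyclic AMP, lies on chromosome 2 (56996842 to 57006246). Its TPM was 9.80, 5.91, 4.73, 12.8 and 4.98 in control, 8.04, 21.4, 18.6 and 26.5 at day 1 and 5.60, 12.6, 26.0 and 12.3 at day 5. Day 1 replicates 2, 3 and 4 were above all controls and replicate 1 was among them, and at day 5 only replicate 3 was above all controls. The log2 fold change at day 1, 1.26, was larger than that of Egr1, but its standard error of 0.41 was also larger (adjusted p = 0.268, limma). At day 5 it was 0.79 (95% interval -0.11 to 1.68, adjusted p = 0.316, limma).

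Nr4a1, a receptor induced in T cells by antigen and in tissues by many stimuli, lies on chromosome 15 (101164660 to 101172680). Its TPM was 72.8, 72.6, 65.0, 90.2 and 59.3 in control, 70.9, 79.6, 89.8 and 103 at day 1 and 73.7, 53.7, 90.5 and 92.8 at day 5. The groups overlapped throughout, and day 5 replicate 2 was the lowest of the 13 libraries. The 95% interval of the log2 fold change was -0.03 to 0.63 at day 1 and -0.20 to 0.45 at day 5.

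Nr4a3, the third receptor, lies on chromosome 4 (48045153 to 48086447). Control TPM were 1.50, 2.19, 1.18, 8.14 and 2.56, so that control replicate 4 stood apart. They were 2.62, 1.76, 2.98 and 2.64 at day 1 and 1.88, 2.29, 2.00 and 1.18 at day 5, within the control range. The log2 fold change was 0.02 at day 1 and -0.35 at day 5. Without control replicate 4 these were 0.40 and 0.03, and neither passed (limma). Control replicate 4 was also the highest control library for Nr4a1, Nr4a2 and Egr3, but the lowest for Ier2, Dusp1 and Zfp36.

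Ier2, a nuclear protein of the first wave after growth factors, lies on chromosome 8 (85387960 to 85389483). Its TPM was 50.8, 58.2, 54.3, 41.4 and 51.8 in control, 65.4, 59.5, 59.5 and 68.4 at day 1 and 66.2, 66.1, 66.5 and 61.2 at day 5. All 8 MN libraries were above all controls. The difference was small, 1.30-fold at day 5, and it passed the adjusted p there (limma, log2 fold change 0.38 with a standard error of 0.09, adjusted p = 0.0200) but not the fold threshold. At day 1 it was 1.28-fold (log2 fold change 0.35, adjusted p = 0.178, limma). The days differed by 0.03 on the log2 scale (95% interval -0.17 to 0.23). The adjusted p at day 5 rose to 0.0707 without day 5 replicate 1 and to 0.0703 without day 5 replicate 2.

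Ier3, which shares the prefix but not the family and affects cell survival under stress, lies on chromosome 17 (36132568 to 36133815). Its TPM was 45.4, 41.4, 32.8, 42.4 and 41.5 in control, 61.4, 47.7, 42.7 and 43.8 at day 1 and 51.8, 40.7, 37.9 and 45.7 at day 5. Day 1 replicate 1 was the highest library, and both MN groups overlapped with control. The log2 fold changes of 0.30 at day 1 and 0.15 at day 5 did not pass (limma, adjusted p = 0.385 and 0.617).

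Of the brakes, Dusp1 lies on chromosome 17 (26724564 to 26727493). Its TPM was 177, 154, 182, 153 and 181 in control, 146, 208, 205 and 189 at day 1 and 173, 181, 159 and 174 at day 5. Day 1 held both the highest and the lowest of the 13 libraries. The 95% interval of the log2 fold change was -0.05 to 0.41 at day 1 and -0.18 to 0.28 at day 5, so a change of more than 0.41 in either direction lay outside both.

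Zfp36, also called tristetraprolin, lies on chromosome 7 (28076209 to 28079710). Its TPM was 63.2, 57.6, 66.5, 57.2 and 57.5 in control, 43.9, 63.5, 59.6 and 54.9 at day 1 and 55.1, 52.6, 54.9 and 53.6 at day 5. In TPM all day 5 libraries were below all controls, but after scaling between libraries they overlapped. The log2 fold change was -0.09 at day 1 and -0.12 at day 5 (adjusted p = 0.737 and 0.521, limma).

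**Figure D3:**
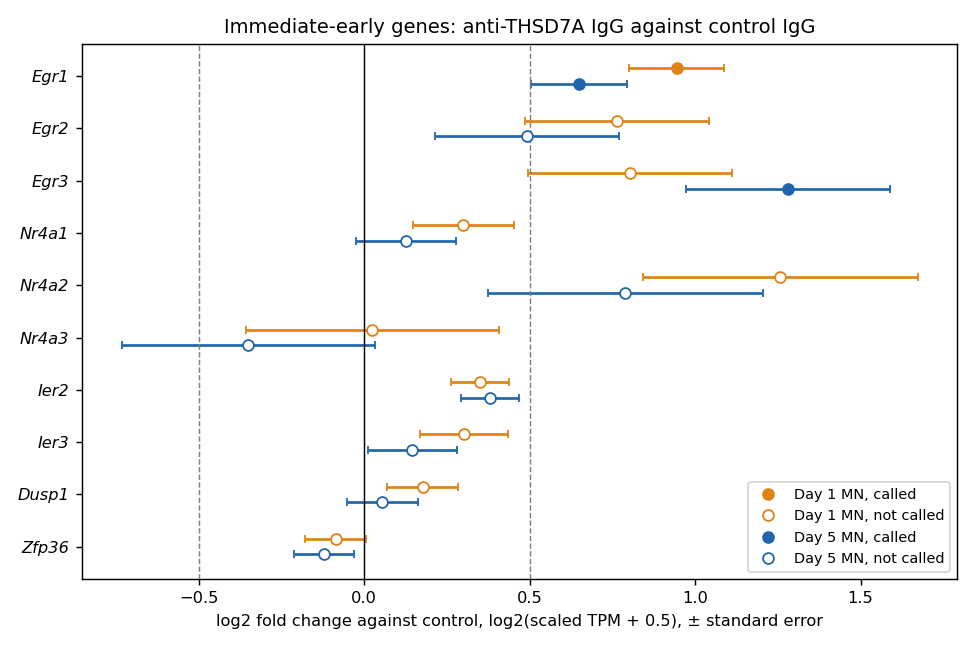
Log2 fold change against control of the 10 genes at day 1 (orange) and day 5 (blue), on the log2(scaled TPM + 0.5) scale, with standard errors; filled points were called, open points were not, and dashed lines mark ±0.5. Egr2 comes from the fit without a filter. Egr1 (0.94 and 0.65) and Egr3 at day 5 (1.28) are filled, and Nr4a2 at day 1 (1.26) is open with a wide bar.

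No member was called between day 5 and day 1 MN (259 of 14322 genes, 1.81%, were called in either direction), and none of the 9 tested members had an unadjusted p under 0.05 there in the limma fit. TPM of the days overlapped for all 10 genes. The widest 95% interval among the 9 was that of Nr4a2, -1.41 to 0.47, and the narrowest was that of Ier2.

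Whether mice with a high level of one member were also high for the others was asked within groups, after removing each group's mean log2 value. The correlation was computed for all 45 pairs over the 13 libraries. Of these, 24 were positive, with a median Pearson r of 0.01 and a range of -0.54 to 0.87. The pair of brakes, Dusp1 and Zfp36, had the highest (r = 0.87, Spearman rho = 0.80, permutation p = 0.00167 for r and 0.00442 for rho, two-sided), and r was 0.77 without the 2 libraries farthest from the median of Dusp1. After Benjamini-Hochberg adjustment over 45 pairs the permutation p was 0.0751 for r and 0.199 for rho, and no pair passed. At an unadjusted permutation p under 0.05 for r, 1 pair passed. Which libraries were prepared together is not given. The values share a scaling, and without that scaling the highest r was 0.84.

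Genes whose pattern over the 13 libraries was among the most like the mean standardised level of the 9 tested members were Maff (Pearson r = 0.90), B3galnt1 (0.88), Tuba1b (0.86), Tnfrsf12a (0.85), Snrnp40 (0.84), Myl6 (0.83) and Nol10 (0.81). For Egr1 alone they were Plpp6 (0.95), Tuba1b (0.90), Gm20390 (0.90), B3galnt1 (0.89) and Ddr1 (0.88). These correlations include the differences between the groups and describe how near the patterns lie. Among the members, Egr1 itself followed the mean most closely (r = 0.84) and Zfp36 least (0.00), each being part of the mean.

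The related genes were counted in lists of their pathway. Of 97 listed genes, 94 were tested, of which 2 were called higher at day 1 and 4 at day 5, and none was called lower. Over all 14322 tested genes, 0.0559% were called higher at day 1 and 2.42% at day 5, and 5 and 113 genes were called lower. The median log2 fold change of the 94 genes was 0.00 at day 1 and 0.08 at day 5, next to -0.0029 and -0.0032 over all tested genes. Of 8 FOS, JUN and ATF genes, which encode subunits of the AP-1 factor and its relatives, Fosb was called at day 1 and Junb at day 5. Fosb went from 0.499 to 1.06 TPM in control to 1.87 to 3.76 at day 1 (log2 fold change 1.37, adjusted p = 0.0395, limma), and was at 0.849 to 1.46 at day 5 (0.51, adjusted p = 0.212). Junb had 49.6 to 62.6 TPM in control and 73.5 to 79.4 at day 5 (log2 fold change 0.51, adjusted p = 0.0175, limma), and its log2 fold change at day 1 was 0.45 (adjusted p = 0.178).

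Of 35 tested other immediate-early genes, Maff, a small MAF factor, was called at both days. It rose from 6.27 ± 0.920 TPM in control (SD, n = 5) to 16.8 ± 2.16 at day 1 and 13.3 ± 3.93 at day 5 (both n = 4), with log2 fold changes of 1.40 and 1.03 (adjusted p = 0.00832 and 0.00254, limma). Klf4, a Krüppel-like factor of podocytes and endothelium, rose at day 5 (log2 fold change 0.65, adjusted p = 1.9e-04, limma) and had an adjusted p of 0.0271 at day 1 with a log2 fold change just under the threshold. Tnfaip3, an inhibitor of NF-κB signalling, rose at day 5 (0.81, adjusted p = 0.00867, limma). Also under 0.05 at day 5 but below the fold threshold were Ier5 (log2 fold change 0.26, adjusted p = 0.0296), the kinase gene Sgk1 (0.41, adjusted p = 0.0186) and, lower than control, the small MAF gene Mafk (-0.31, adjusted p = 0.0190), which were chosen after their values were seen (limma). The median of the list was 0.00 at day 1 and 0.08 at day 5.

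None of the 14 tested MAP kinase phosphatases, Sprouty and Spred genes other than Dusp1 was called at day 1 or day 5. The most abundant by mean TPM over the 13 libraries were Spred2 (log2 fold changes -0.10 and -0.00) and Dusp6, the ERK phosphatase (0.15 and 0.16). The same held for 6 genes of the ZFP36 family and other AU-rich element binding proteins, with Zfp36l1 at -0.13 and -0.12 and Hnrnpd at 0.16 and 0.21. It also held for 12 genes of SRF, ELK, CREB and CRTC factors, with Elk3 at 0.15 and 0.20 and Elk4 at -0.04 and 0.14. Of 17 MAP kinase pathway genes none was called. The most abundant was Mapk3 (ERK1), at 0.08 and 0.25. Below the fold threshold, Mapk3 had an adjusted p of 0.0325 at day 5, and Map2k7, a kinase that activates JNK, fell by 0.40 on the log2 scale at day 5 (limma, adjusted p = 0.00187). Dusp8, a phosphatase of JNK and p38, had a log2 fold change of 0.37 there (limma, adjusted p = 0.0333). Map2k7 and Dusp8 were chosen after their values were seen.

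Heat shock genes, which mark proteotoxic stress, were set beside these lists. None of 12 was called, 1 had a log2 fold change above 0 at day 1 and 0 at day 5, and their medians were -0.40 and -0.18. Their summed TPM lay between 3454 and 5212 in control, 2293 and 7188 at day 1 and 2956 and 5086 at day 5, so the groups overlapped. Hsp90ab1 (-0.27 and -0.17) and Hspa8 (-0.44 and -0.10) were the most abundant and did not pass. The part of heat shock transcripts in the values of the 10 genes was not tested. For tubule transcripts, only the fit with the tubule score as a covariate was run, chosen after the data were seen. It does not measure the part of these transcripts in the values.

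**Figure D4:**
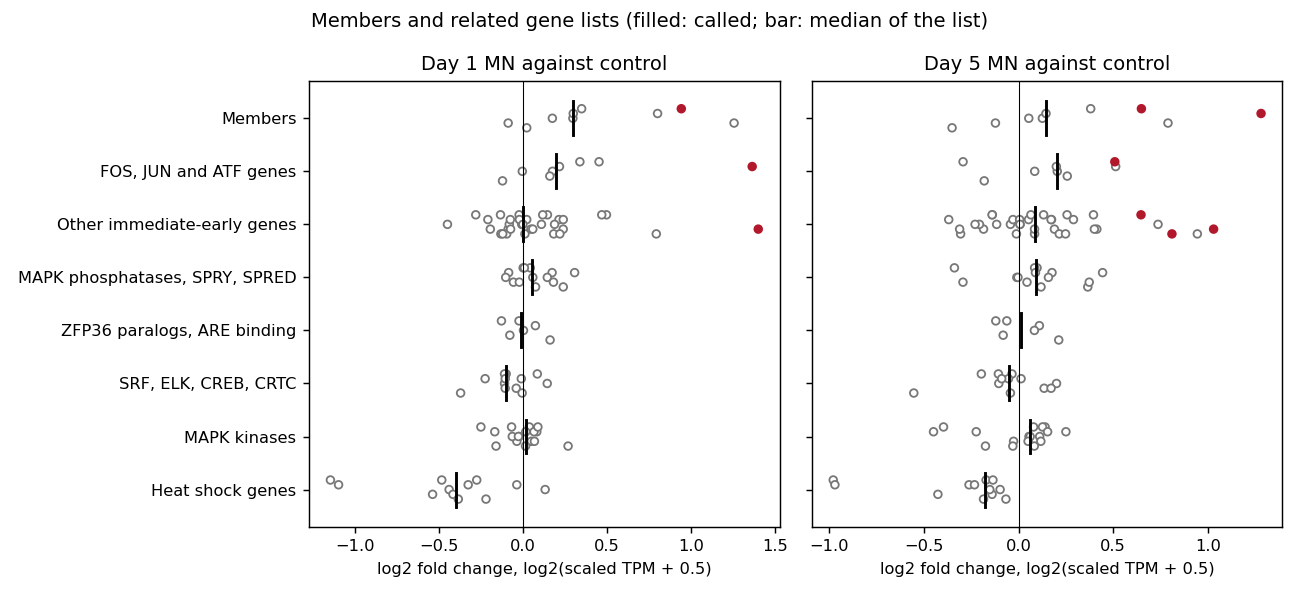
Log2 fold change (log2(scaled TPM + 0.5) scale) of the tested members and 7 related lists at day 1 (left) and day 5 (right), each point 1 gene; filled points were called and the bar is the median of the list. Called genes are few, with Egr1, Fosb and Maff at day 1 and Egr1, Egr3, Junb, Maff, Klf4 and Tnfaip3 at day 5, and the heat shock median lies below 0 at both days.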

How the data were processed

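Glomerular RNA of 13 mice was sequenced in paired-end libraries. Per the labels, the authors used FastQC 0.11.9, Trimmomatic 0.39 and kallisto 0.46.2 with GRCm39, and deposited TPM, 1 value per gene symbol and library. Kallisto assigns reads to transcripts and may split those of near-identical genes. No counts were used here, so depth and counting error were unknown.

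Groups came from the sample labels. Libraries were scaled by median-of-ratios factors, taken over the 15772 genes above 0 throughout, and values became log2(scaled TPM + 0.5). The 14322 genes that reached a TPM of 1 in 4 or more libraries were fitted with limma (version 3.58.1, R version 4.3.3; 1 fit of 3 groups, eBayes with a trend, Benjamini-Hochberg adjustment within each contrast). The authors' thresholds were kept, although the authors tested counts. Correlations were tested with 100000 permutations within groups.

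The 10 genes, the lists and the alternatives were chosen with earlier results of these data known. The text names all 10 members, called genes of each list or its 2 most abundant, the 8 genes most like the members' mean and the 5 most like Egr1. Some genes under this rule are left out here. Coordinates are canonical transcripts of the GENCODE annotation of GRCm39. Alternatives covered pseudocount, scaling, filter, trend, groups in the fit, replicate number, weights, threshold and leaving out each library. Plots were drawn with matplotlib 3.10.9.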

Additional observations from a re-analysis of the deposited data

Results flagged for a closer look

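Among 10 genes in 3 groups, 2 libraries stood apart from their group by Dixon's test, which by chance picks about 1 in 20 groups. Nr4a3 had a TPM of 8.14 in control replicate 4, and the next highest control library had 2.56. Ier2 had a TPM of 61.2 in day 5 replicate 4, the lowest of its group, where the other 3 lay between 66.1 and 66.5.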

How the results depend on the processing

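Of the members, Egr1 at both days and Egr3 at day 5 kept a positive log2 fold change in all fits that gave a value. The same was true of members not called in the fit as reported, namely Nr4a1, Nr4a2, Ier2, Ier3 and Dusp1 at both days and Egr3 at day 1. With no filter on low TPM, with no trend, with only the 2 compared groups or with the tubule score (chosen after seeing the data), the number of members called at day 1 was 0 in place of 1 (6, 4, 6 and 2 members had an unadjusted p under 0.05, limma), and the genes called at day 1 numbered 6, 7, 2 and 0 in place of 13 (1230 genes had an unadjusted p under 0.05 with the tubule score). Members called at day 5 numbered 1 in place of 2 when every library had to reach a TPM of 1, which removed Egr3, and with only the 2 compared groups. With the adjusted p alone, genes called at day 5 numbered 876 in place of 460, and Ier2 at 0.38 was then called too. Between the days, 153 genes were called under that stricter filter, 414 with only the 2 compared groups and 102 with the tubule score, in place of 259. Leaving out 1 library at a time gave 3 to 218 genes at day 1 (218 without control replicate 5, 3 without day 1 replicate 1), 326 to 474 at day 5, and 150 to 437 between the days (437 without control replicate 5, 164, 150 and 160 without day 5 replicates 1, 2 and 3). Members called ranged from 0 to 1 at day 1 and from 0 to 2 at day 5, and were 0 between the days. The cause of these differences was not tested.

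Replicate numbers label different animals. Residuals of same-numbered libraries correlated at -0.06 to 0.09, none of 12 pairs above 0.1, and 2 of 13 libraries correlated best with their own number, so the samples share only a number. Only the control group has a replicate 5, so a block by number takes control replicate 5 out of the group differences. With the replicate number as a block, 149 genes were called at day 1 and 348 at day 5, and 331 between the days. Members called at day 5 were then 0 (limma, Egr1 0.61, adjusted p = 0.0707, and Egr3 1.22, adjusted p = 0.0836).

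Directions that changed belonged to differences that no fit called. Nr4a3 at day 1 was -0.0029 with a pseudocount of 1, -0.013 without scaling, -0.013 with quantile normalization, -0.0029 with array weights and -0.32 with the tubule score, and -0.18 to 0.40 when 1 library was left out. Nr4a3 at day 5 was -0.56 to 0.029, Zfp36 -0.16 to 0.019 at day 1 and -0.14 to 0.040 between the days, and Ier2 between the days -0.0073 to 0.068 when 1 library was left out. Ier2 between the days was -9.1e-05 with the tubule score. Without scaling between libraries, 0 of 45 member pairs passed the adjusted permutation test, as with it. The unknown depth limits Egr2 and Egr3 most, whose TPM were mostly under 2.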
